A study of Mus musculus with 18 samples.

Results

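Keratin, tight junction and desmosome genes were followed in E0771 cells, a mouse mammary tumor line that the submitters class as triple-negative breast cancer. The group held 42 of the 50686 genes listed in the count files, and its members were chosen by symbol: 5 simple keratins, 6 basal, stress and other keratins, 7 claudins, 6 other tight junction proteins, 11 desmosome proteins, 1 precursor of the cornified envelope, and 6 splicing and transcription factors of epithelial cells. All cells carried a firefly luciferase construct driven by the CMV promoter and selected with puromycin. They also carried a hairpin in a retroviral LENC vector with an mCherry marker, by which transduced cells were sorted. The hairpin targeted Renilla luciferase in cntrl cells and Cdk8, the kinase of the Mediator complex, in shCdk8-1 and shCdk8-2 cells. Cells of every line received Senexin B (SnxB) at 1 µM or DMSO alone for 48 h. SnxB is an inhibitor of CDK8 and its homologue CDK19. There were 3 libraries in each of the 6 groups. Each hairpin was present in 1 transduced line, so that an effect of the hairpin and a difference between lines cannot be told apart.

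Epithelial sheets are held together by these proteins. Keratins form filaments only as pairs of a type I and a type II chain, and desmosomes anchor the filaments at cell contacts: desmosomal cadherins bind across the gap, plakoglobin and plakophilins bind their tails, and desmoplakin, periplakin and envoplakin link them to keratin. Tight junctions seal the space between cells with claudins, occludin and tricellulin, which the ZO proteins and cingulin tie to actin. Loss of these genes, together with the Esrp, Ovol and Grhl factors that maintain them, is a textbook feature of the epithelial-to-mesenchymal transition (EMT). The study sequenced the lines to learn how Cdk8 bears on the spread of these tumor cells.

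The libraries held 16452260 to 22664693 counts. A count of 3 in a library, taken as the lowest level that can be told from 0, corresponded to 0.132 to 0.182 CPM (counts scaled to the size of the library), and this limit covers counting error only. Cdk8 itself was at 56.1 ± 2.12 CPM in cntrl, 21.4 ± 2.44 CPM in shCdk8-1 and 38.8 ± 0.376 CPM in shCdk8-2 cells in DMSO (SD, n = 3 each). It was lower with both hairpins by edgeR's quasi-likelihood test (log2 fold change -1.38 and -0.53, Benjamini-Hochberg adjusted p = 2.58e-12 and 1.92e-06). Of the epithelial markers, Cldn7 was at 0 counts in every library, Krt18 did not exceed 1 count, Epcam did not exceed 8 counts and Cdh1 did not exceed 17 counts. The summed level of the 5 epithelial markers was 0.163 to 0.392 CPM in the cntrl libraries in DMSO. It was 8.08 to 8.94 CPM in shCdk8-1 and 12.4 to 14.3 CPM in shCdk8-2, most of it Krt8 in these knockdown lines. Krt8, Krt18 and Cldn7 are also members of the group, so that this sum is not separate from the results below. Of the 7 mesenchymal markers, Vim was at 4428 ± 70.1 CPM in cntrl cells, while Fn1 did not exceed 3 counts and Cdh2 did not exceed 1 count. Among the 5 that were tested, Col1a1 and Col1a2, the chains of type I collagen, were called higher with both hairpins in DMSO and in SnxB. Col1a1 was at 0.780 ± 0.295 CPM in cntrl, 16.6 ± 1.62 CPM in shCdk8-1 and 9.90 ± 0.708 CPM in shCdk8-2 cells in DMSO (log2 fold change 4.43 and 3.69, adjusted p = 6.70e-14 and 6.35e-12). S100a4 fell from 225 ± 16.0 CPM to 112 ± 3.03 and 135 ± 6.06 CPM (adjusted p = 4.55e-09 and 4.52e-07) and was called lower with shCdk8-1. Sparc, also tested, was lower by the adjusted p with shCdk8-1 only, by less than 2-fold. Among the receptors that define the tumor class, Pgr was at 0 counts in every library, whereas Esr1 was at 23.1 ± 1.42 CPM in cntrl cells and fell to 1.25 ± 0.261 and 0.951 ± 0.266 CPM with the hairpins. Erbb2 was also lower with both by the adjusted p, by less than 2-fold. The 3 receptors summed to 77.9 to 79.4 CPM in cntrl, 47.5 to 52.5 CPM in shCdk8-1 and 46.9 to 49.7 CPM in shCdk8-2 libraries in DMSO. The endothelial marker Pecam1 rose with both hairpins (0.286 ± 0.0975, 14.3 ± 0.850 and 5.85 ± 0.227 CPM in cntrl, shCdk8-1 and shCdk8-2) while Cdh5 fell (4.34 ± 0.347, 0.206 ± 0.0443 and 0.595 ± 0.0541 CPM), and the summed level of 3 endothelial markers was 4.94 to 5.60 CPM in cntrl, 13.6 to 15.1 CPM in shCdk8-1 and 6.41 to 6.83 CPM in shCdk8-2 libraries in DMSO. The 3 adipocyte markers were at or under 3 counts in every library, as were 4 of the 6 immune markers. The part of other cell types in the results was not tested, and in bulk RNA fewer cells of a type and less RNA per cell cannot be told apart.

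Most of the group was silent or too low to test in these cells. In every one of the 18 libraries, 20 of the 42 genes had 3 counts or fewer, and Cldn3, Cldn4, Cldn7, Dsg2 and Perp had 0. Another 8 exceeded 3 counts in some library but did not pass the filter on low counts. The remaining 14 were tested: Krt8 and Krt80 among 11 keratins, Cldn12 among 7 claudins, Ocln, Marveld2 and Tjp1 among the other tight junction proteins, Jup and Pkp1 to Pkp4 among the desmosome proteins, and Sprr1a, Ovol1 and Grhl2. Of these, 8 passed the filter in all 18 libraries. The other 6 (Krt8, Marveld2, Pkp1, Sprr1a, Ovol1 and Grhl2) reached its limit of 0.526 CPM in some libraries only, so that a difference was built into their passing, and counts over the tested genes are given below as a description.

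Per kilobase of exon (RPKM), the most abundant member was Tjp1, which encodes the scaffold ZO-1, at 49.0 RPKM in cntrl cells in DMSO. It was followed by Pkp4, a plakophilin-related protein of cell contacts, at 41.7 RPKM, Krt80 at 6.26 RPKM, Pkp2 at 5.82 RPKM, Cldn12 at 4.90 RPKM, Ocln at 3.04 RPKM, Sprr1a at 2.70 RPKM and Jup at 1.22 RPKM. Every other member was under 1 RPKM in cntrl cells. Krt8 reached 4.16 and 7.22 RPKM and Jup 10.8 and 8.36 RPKM in shCdk8-1 and shCdk8-2 cells, which placed both among the more abundant members in the knockdown lines. Among the membrane-spanning claudins and desmosomal cadherins of the group, Cldn12 alone passed the filter.

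**Figure D1:**
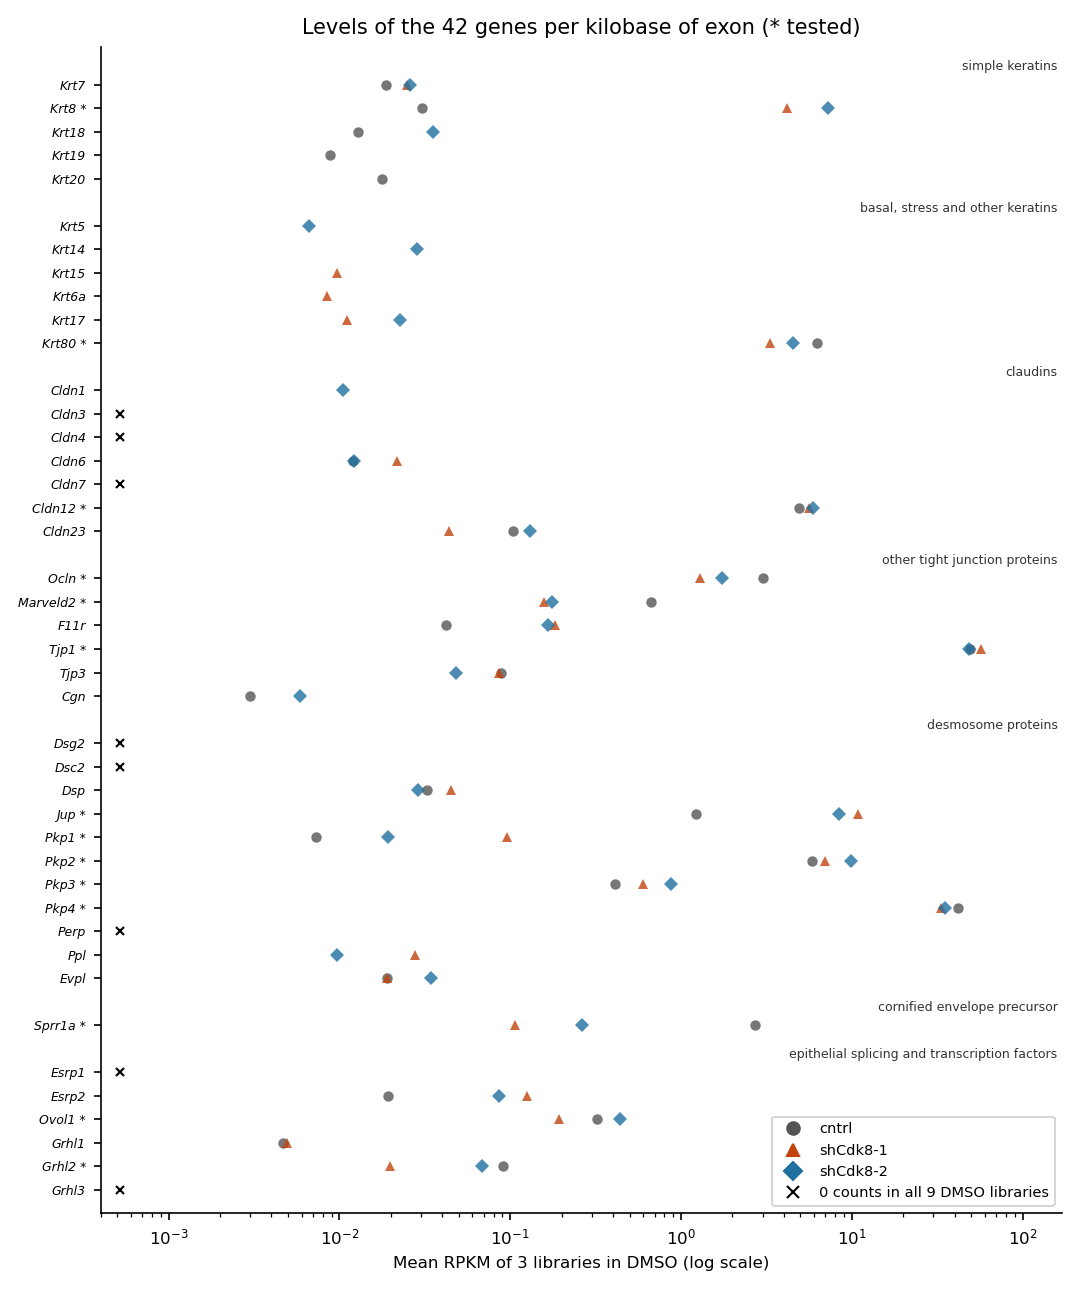
Mean level of each of the 42 genes in DMSO, in RPKM on a log axis, for cntrl (circles), shCdk8-1 (triangles) and shCdk8-2 cells (diamonds), n = 3 libraries each, with crosses for genes at 0 counts in all 9 DMSO libraries and no symbol for another group at 0. Tjp1 and Pkp4 lie furthest to the right, Krt8 and Jup lie further right in both knockdown lines than in cntrl, and Sprr1a lies further left.

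The tested members differed between the knockdown lines and cntrl in both directions. In DMSO, Krt8 and Jup rose and Marveld2 and Sprr1a fell by over 2-fold with both hairpins. These 4 were called in the same direction with both, as were 9.53% of all 12772 genes tested. A gene was called where its fold change exceeded 2 and its adjusted p was under 0.05. With shCdk8-1, 3 members were called higher (Krt8, Jup and Pkp1; 5.37% of all genes tested) and 4 were called lower (Ocln, Marveld2, Sprr1a and Grhl2; 7.14% of all genes). With shCdk8-2, 3 were called higher (Krt8, Jup and Pkp3; 5.07%) and 2 were called lower (Marveld2 and Sprr1a; 5.95%). By the adjusted p alone, 14 of the 14 tested members passed with shCdk8-1 (59.6% of all genes) and 10 of 14 with shCdk8-2 (57.1%). The median log2 fold change of the tested members was -0.07 and 0.13, and that of all genes was 0.01 with each hairpin. Both comparisons use the same 3 cntrl libraries.

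**Figure D2:**
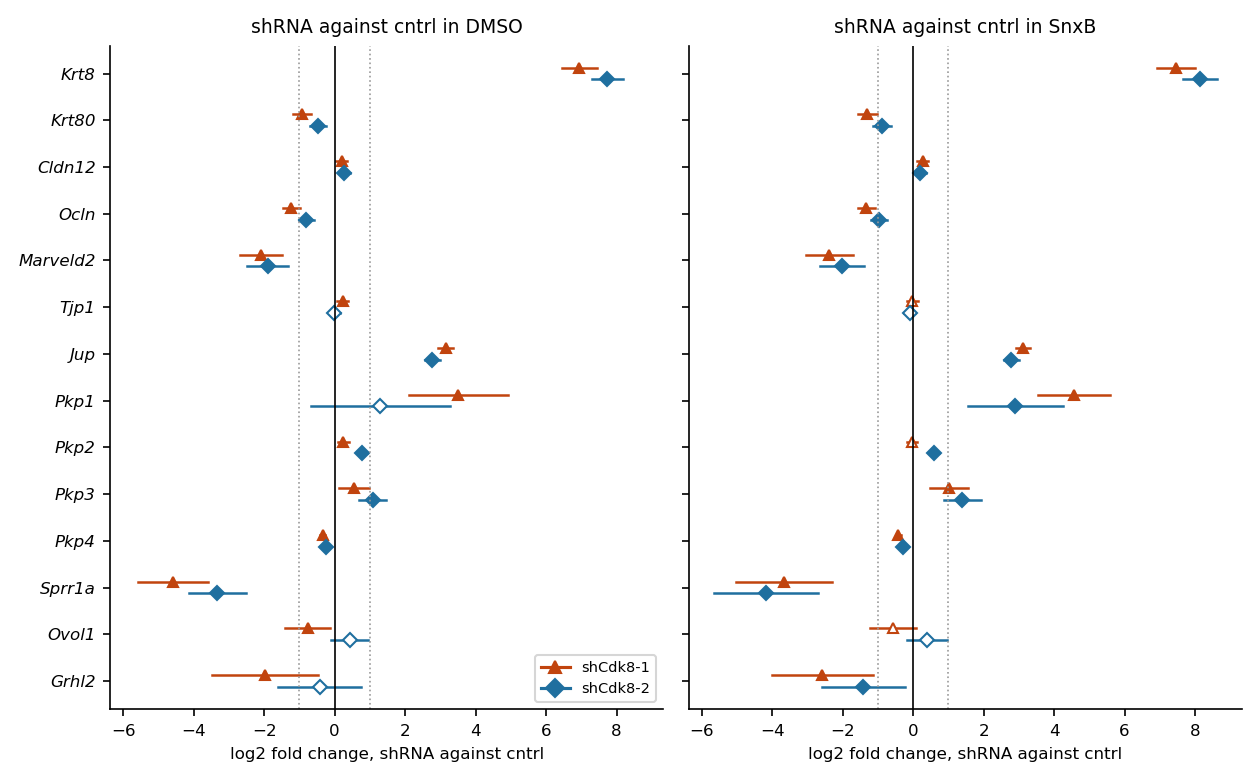
Log2 fold change of the 14 tested genes with shCdk8-1 (triangles) and shCdk8-2 (diamonds) against cntrl, in DMSO (left) and in SnxB (right), with bars for 95% confidence intervals and filled symbols for an adjusted p under 0.05. Dotted lines mark 2-fold changes. Krt8, Jup, Marveld2 and Sprr1a lie beyond them on the same side with both hairpins in both panels.

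Among the keratins, the simple type II chain Krt8, which pairs with Krt18 in single-layered epithelia, showed the largest rise in the group. Its gene lies on chromosome 15 of GRCm38 (101996711 to 102004342, minus strand). In DMSO, Krt8 had 1 count in each cntrl library (0.0616, 0.0542 and 0.0490 CPM), 7.18, 7.80 and 7.53 CPM in the shCdk8-1 libraries and 12.1, 13.3 and 13.6 CPM in the shCdk8-2 libraries. In SnxB, it was at 0, 0.0464 and 0.0512 CPM in cntrl, 6.50, 6.89 and 7.82 CPM in shCdk8-1 and 11.3, 11.6 and 11.2 CPM in shCdk8-2 libraries. Every knockdown library lay above every cntrl library, and the shCdk8-2 libraries lay above the shCdk8-1 libraries. Summed over libraries in DMSO, 436 counts in shCdk8-1 against 3 in cntrl gave a ratio of 138 (95% counting interval 46.8 to 670), and 789 counts in shCdk8-2 gave 238 (81.2 to 1158). The fitted log2 fold changes, whose size depends on the prior count at such low cntrl levels, were 6.94 ± 0.237 and 7.74 ± 0.209 (SE; adjusted p = 1.76e-15 and 9.70e-17). Between the hairpins, Krt8 was 0.79 ± 0.0830 higher on the log2 scale with shCdk8-2 (adjusted p = 8.13e-07), although Cdk8 was higher in that line.

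The rise of Krt8 had no counterpart in a type I chain. Krt18, whose gene starts 23.9 kb from that of Krt8, did not exceed 1 count in any library and was at 0 counts in the 3 shCdk8-1 libraries in DMSO. Of 28 type I keratins listed in the files, only Krt16 and Krt24 exceeded 3 counts in any library, with at most 9 and 4. Krt16, a stress keratin outside the group that is named because its values were seen, had a mean of 0.165 CPM in cntrl, 0.311 CPM in shCdk8-1 and 0.359 CPM in shCdk8-2 cells in DMSO and was not tested. The promoters of Krt8 and Krt18 are shown because the neighboring genes differed in their response. The windows cover the 250 bases before the RefSeq start on GRCm38.p6, at chr15:102004343-102004592 (minus strand) for Krt8 and chr15:102027966-102028215 (plus strand) for Krt18, with matches to 4 motifs in capitals:
Krt8: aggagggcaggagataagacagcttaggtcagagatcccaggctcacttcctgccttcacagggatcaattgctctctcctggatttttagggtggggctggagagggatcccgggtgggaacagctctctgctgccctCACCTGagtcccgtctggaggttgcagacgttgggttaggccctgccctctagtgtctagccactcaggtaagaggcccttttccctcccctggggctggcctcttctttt
Krt18: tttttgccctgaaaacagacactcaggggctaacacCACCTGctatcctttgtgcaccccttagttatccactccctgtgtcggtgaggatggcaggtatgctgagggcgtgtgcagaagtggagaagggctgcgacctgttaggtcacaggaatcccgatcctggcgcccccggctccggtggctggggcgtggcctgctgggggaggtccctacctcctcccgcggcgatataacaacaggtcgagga
The motifs, searched on both strands, were CAGGTG (an E-box read by Snail and Zeb factors), AACCNGTT (Grainyhead-like), TGANTCA (AP-1) and GGGCGG (GC box). No match overlapped another in the windows printed. Both windows held 1 CAGGTG match, 111 to 106 bases before the start of Krt8 and 214 to 209 bases before that of Krt18. Such a match was present in 17.1% of the windows of 27025 genes and in 10 of the 24 members with a window in the RefSeq table.

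The other expressed keratin moved the opposite way. Krt80, a type II keratin found at desmosomes of differentiating cells, lies on the same chromosome as Krt8 (101349571 to 101370125). In DMSO, it was at 10.3, 11.9 and 11.1 CPM in cntrl, 5.40, 7.23 and 5.06 CPM in shCdk8-1 and 7.48, 8.67 and 7.94 CPM in shCdk8-2 libraries. The 3 groups did not overlap against cntrl, and Krt80 fell by 0.92 ± 0.117 with shCdk8-1 and by 0.47 ± 0.110 with shCdk8-2 on the log2 scale (SE; adjusted p = 8.82e-07 and 0.00106), less than 2-fold in each case. In SnxB it was at 11.4, 9.69 and 9.17 CPM in cntrl, 4.25, 4.10 and 3.86 CPM in shCdk8-1 and 5.96, 5.12 and 5.25 CPM in shCdk8-2 libraries. There it passed the 2-fold limit with shCdk8-1 (log2 fold change -1.31 ± 0.127, adjusted p = 2.12e-08) and not with shCdk8-2 (-0.88 ± 0.120, adjusted p = 2.85e-06). Of the remaining keratins, Krt7 had 1 to 10 counts per library, with a mean of 0.132 CPM in cntrl, 0.174 CPM in shCdk8-1 and 0.183 CPM in shCdk8-2 cells in DMSO, and Krt5, Krt6a, Krt14, Krt15, Krt17, Krt19 and Krt20 did not exceed 2 counts. Another 42 keratin genes outside the group gave no gene that could be tested, with 39 at or under 3 counts in every library.

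**Figure D3:**
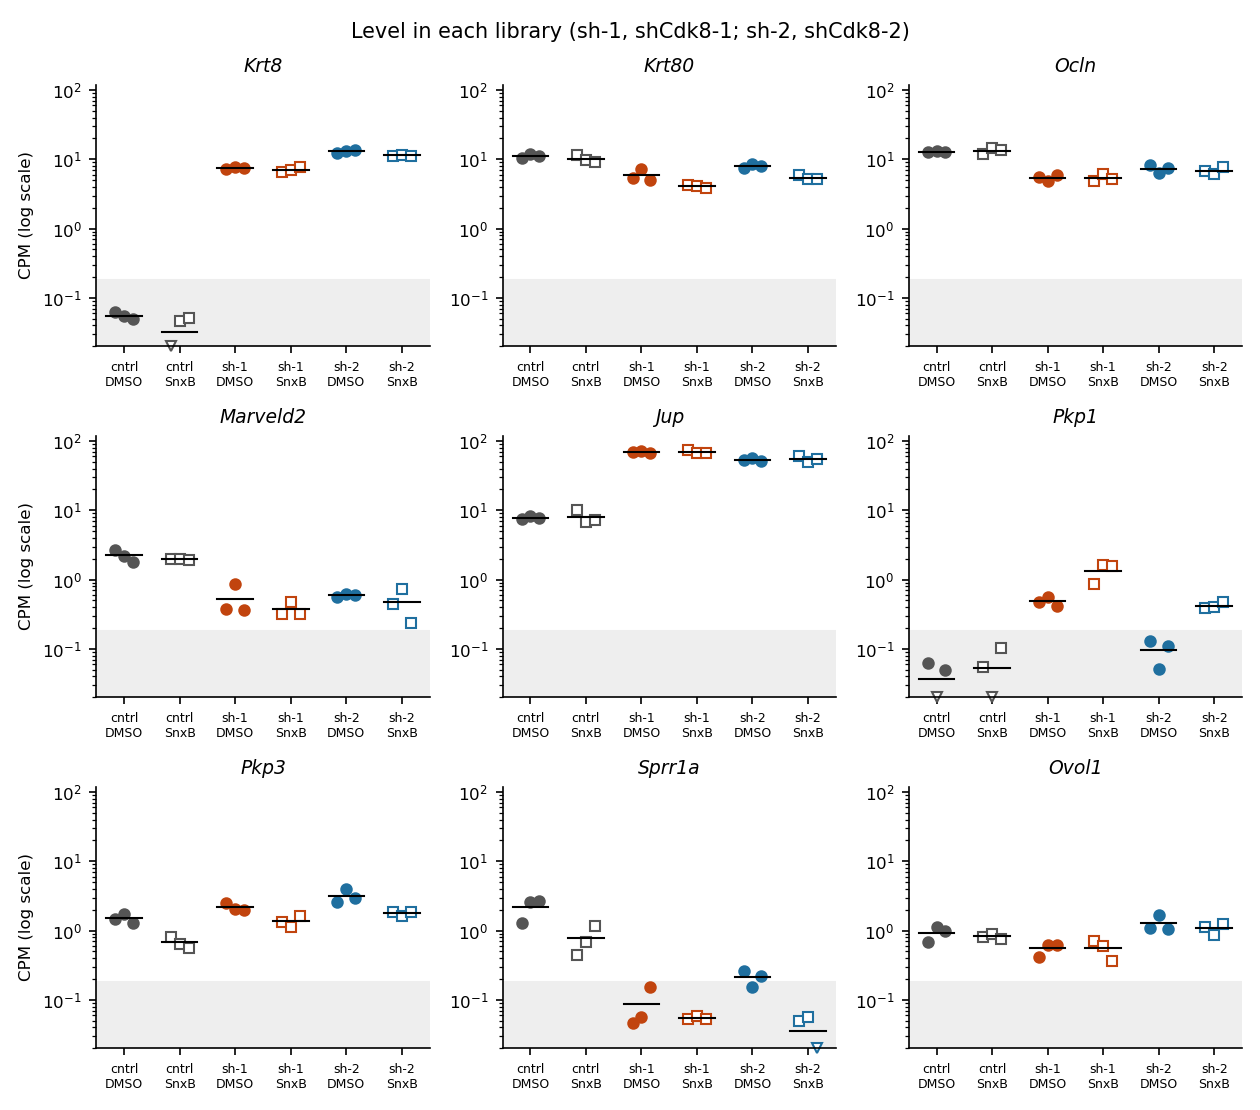
CPM on a log axis in each of the 18 libraries for the 9 genes called in at least 1 comparison with a group mean of at least 1 CPM, in DMSO (filled circles) and SnxB (open squares), with lines for group means and open triangles at the lower edge for libraries at 0 counts. The grey band lies under 0.182 CPM, the highest level that 3 counts correspond to in a library. The cntrl libraries of Krt8 lie in the band and its knockdown libraries above it, and every knockdown library of Sprr1a lies under every cntrl library.

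At tight junctions, Ocln and Marveld2, the members that encode MARVEL-domain proteins, were lower in both knockdown lines than in cntrl. Ocln encodes occludin, the first membrane protein found in tight junction strands, and Marveld2 encodes tricellulin, which seals the points where 3 cells meet. Ocln was at 12.6, 13.1 and 12.8 CPM in cntrl, 5.64, 4.78 and 5.93 CPM in shCdk8-1 and 8.2, 6.38 and 7.39 CPM in shCdk8-2 libraries in DMSO. The groups did not overlap, and Ocln fell by 1.23 ± 0.113 with shCdk8-1 (SE; adjusted p = 9.33e-09) and by 0.80 ± 0.107 with shCdk8-2 (adjusted p = 2.03e-06) on the log2 scale, past the 2-fold limit only with shCdk8-1. In SnxB, Ocln was at 11.9, 14.6 and 13.5 CPM in cntrl, 4.84, 6.06 and 5.13 CPM in shCdk8-1 and 6.70, 6.14 and 7.62 CPM in shCdk8-2 libraries, again without overlap (log2 fold change -1.33 ± 0.113 and -0.97 ± 0.108, adjusted p = 3.10e-09 and 1.93e-07). Marveld2 was at 2.71, 2.22 and 1.81 CPM in cntrl, 0.376, 0.854 and 0.361 CPM in shCdk8-1 and 0.565, 0.612 and 0.602 CPM in shCdk8-2 libraries in DMSO. Every knockdown library lay under every cntrl library, and the log2 fold changes were -2.09 ± 0.287 and -1.90 ± 0.276 (adjusted p = 2.70e-06 and 6.54e-06). In SnxB, Marveld2 was at 1.97, 1.99 and 1.90 CPM in cntrl, 0.322, 0.475 and 0.317 CPM in shCdk8-1 and 0.443, 0.739 and 0.236 CPM in shCdk8-2 libraries, with log2 fold changes of -2.39 ± 0.318 and -2.03 ± 0.301 (adjusted p = 1.88e-06 and 8.48e-06). In the knockdown lines it rested on 4 to 15 counts per library.

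Ocln and Marveld2 are neighbors on chromosome 13, with 43.2 kb between them and both on the minus strand (100496507 to 100552718 and 100595957 to 100616971). Their promoters are shown because the 2 genes fell together. The windows lie at chr13:100552719-100552968 and chr13:100616972-100617221 on GRCm38.p6, each the first of 2 windows that RefSeq lists for the gene:
Ocln: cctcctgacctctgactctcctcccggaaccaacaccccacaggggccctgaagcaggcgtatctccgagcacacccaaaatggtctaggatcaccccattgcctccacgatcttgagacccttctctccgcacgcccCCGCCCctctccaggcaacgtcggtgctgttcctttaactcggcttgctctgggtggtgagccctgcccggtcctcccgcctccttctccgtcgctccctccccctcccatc
Marveld2: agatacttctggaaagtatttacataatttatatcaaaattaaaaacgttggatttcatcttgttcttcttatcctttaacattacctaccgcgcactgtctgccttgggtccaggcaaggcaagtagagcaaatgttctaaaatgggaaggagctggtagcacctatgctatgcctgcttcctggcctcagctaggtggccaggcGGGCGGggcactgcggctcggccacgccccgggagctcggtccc
Each held 1 match to GGGCGG, 112 to 107 bases before the start of Ocln and 44 to 39 bases before that of Marveld2, and no match to the other 3 motifs. GGGCGG was present in 32.9% of all windows and in 15 of the 24 members.

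The other tight junction genes of the group moved by less than 2-fold or did not pass the filter. Cldn12, a claudin of wide expression, was the only one of the 7 claudins that passed the filter, as did none of 18 others in the annotation. It was higher by 0.20 ± 0.0767 with shCdk8-1 and 0.27 ± 0.0761 with shCdk8-2 on the log2 scale (SE; 20.7 ± 0.898, 23.8 ± 0.693 and 25.0 ± 0.686 CPM in cntrl, shCdk8-1 and shCdk8-2, SD, n = 3; adjusted p = 0.0327 and 0.00482). The rise with shCdk8-1 was lost without any 1 of 5 of the 6 libraries, the exception being cntrl replicate 3 (adjusted p up to 0.106). Tjp1 rose by 0.23 ± 0.0750 with shCdk8-1 (adjusted p = 0.0133, but 0.0641 without cntrl replicate 2 and 0.112 without shCdk8-1 replicate 2), and its log2 fold change with shCdk8-2 was -0.02 ± 0.0750 (adjusted p = 0.869). F11r, which encodes the junctional adhesion molecule JAM-A, had 3, 1 and 2 counts in cntrl, 16, 6 and 7 in shCdk8-1 and 5, 9 and 12 in shCdk8-2 libraries in DMSO. It did not pass the filter, and the ratio of its summed counts to cntrl was 4.58 (95% counting interval 1.87 to 13.5) with shCdk8-1 and 3.93 (1.58 to 11.7) with shCdk8-2. The corresponding intervals of Tjp3 (ZO-3; 0.465 to 1.93 and 0.236 to 1.24) and Cldn23 (0.117 to 1.34 and 0.530 to 2.97) held 1. Cgn, which encodes cingulin, Cldn1 and Cldn6 did not exceed 2 counts. Outside the group, 17 of 25 other genes of tight junctions and polarity were tested. By the adjusted p, 5 rose and 8 fell with shCdk8-1, and 5 rose and 7 fell with shCdk8-2. Of all genes tested, 59.6% and 57.1% passed. Called by over 2-fold were 2 lower with shCdk8-1 (7.14% of all genes), and 1 higher (5.07%) and 2 lower (5.95%) with shCdk8-2. The MARVEL-domain gene Marveld1 fell by 0.43 and 0.13 on the log2 scale in DMSO (adjusted p = 1.54e-06 and 0.0445; 0.147 with shCdk8-2 in SnxB), and Marveld3 did not exceed 1 count. Lower with both hairpins by over 2-fold were 2 genes: Cgnl1, which encodes paracingulin, fell from 27.5 ± 2.00 CPM to 7.88 ± 1.10 and 8.0 ± 0.283 CPM (log2 fold change -1.80 and -1.78, adjusted p = 4.79e-11 and 6.98e-11), and Patj, a scaffold of the Crumbs complex, from 1.21 ± 0.358 CPM to 0.0690 ± 0.0300 and 0.0145 ± 0.0251 CPM (log2 fold change -4.02 and -5.73, adjusted p = 2.86e-07 and 5.89e-08).

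At desmosomes, the plaque protein Jup rose while the desmosomal cadherins did not exceed 3 counts in any library. Jup encodes plakoglobin, the relative of beta-catenin that links desmosomal and classical cadherins to the cytoskeleton. It was at 7.57, 8.34 and 7.64 CPM in cntrl, 68.8, 72.4 and 67.6 CPM in shCdk8-1 and 52.9, 56.6 and 52.1 CPM in shCdk8-2 libraries in DMSO. All knockdown libraries lay above all cntrl libraries, and the rise was 3.15 ± 0.0981 and 2.78 ± 0.0996 on the log2 scale (SE), or 8.85-fold and 6.85-fold (adjusted p = 3.87e-16 and 6.16e-15). In SnxB, Jup was at 10.2, 6.77 and 7.22 CPM in cntrl, 73.6, 67.5 and 67.6 CPM in shCdk8-1 and 60.0, 50.2 and 55.0 CPM in shCdk8-2 libraries, with log2 fold changes of 3.12 ± 0.0967 and 2.78 ± 0.0983 (adjusted p = 3.80e-16 and 4.80e-15). Between the hairpins Jup was 0.37 ± 0.0757 lower on the log2 scale with shCdk8-2 (adjusted p = 0.00135), the opposite order to Krt8. Its promoter window, shown because the gene had the largest rise among members expressed in every library, lies at chr11:100397791-100398040 on GRCm38.p6 (minus strand):
Jup: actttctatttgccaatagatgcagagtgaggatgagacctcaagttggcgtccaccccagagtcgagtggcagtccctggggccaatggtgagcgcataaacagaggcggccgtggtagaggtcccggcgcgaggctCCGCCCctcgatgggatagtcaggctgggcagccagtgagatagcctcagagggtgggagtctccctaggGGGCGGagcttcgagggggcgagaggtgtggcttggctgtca
It held 2 matches to GGGCGG, 112 to 107 and 42 to 37 bases before the start, and no match to the other 3 motifs.

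Of the desmosomal cadherins, Dsg2 was at 0 counts in every library and Dsc2 did not exceed 1 count, and the 7 other desmogleins and desmocollins were at or under 3 counts throughout. Perp, a membrane protein of desmosomes, was at 0 counts. Desmoplakin, the obligate linker to keratin, had 17 counts in cntrl, 25 in shCdk8-1 and 17 in shCdk8-2 libraries in DMSO when summed, and the counting intervals of its ratio to cntrl were 0.722 to 2.75 and 0.435 to 1.89. Ppl, which encodes periplakin, had 0 counts in all 6 cntrl libraries and 3, 4 and 3 counts in shCdk8-1 libraries in DMSO, and Evpl, which encodes envoplakin, had at most 7 counts in any library.

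The plakophilins, armadillo proteins of the plaque, differed among themselves. Pkp1, the form typical of stratified epithelia, had 1, 0 and 1 counts in cntrl, 10, 10 and 8 counts in shCdk8-1 and 3, 1 and 2 counts in shCdk8-2 libraries in DMSO. The ratio of summed counts in shCdk8-1 to cntrl was 13.3 (95% counting interval 3.34 to 115), with a fitted log2 fold change of 3.51 ± 0.675 (SE; adjusted p = 1.46e-04). With shCdk8-2 both groups were at or under 3 counts per library, and Pkp1 was lower than with shCdk8-1 (log2 fold change -2.21 ± 0.534, adjusted p = 0.00510). Pkp2, the form of simple epithelia and heart, rose by 0.25 ± 0.0703 with shCdk8-1 and by 0.77 ± 0.0681 with shCdk8-2 (31.2 ± 2.60, 37.3 ± 2.08 and 53.3 ± 3.78 CPM in cntrl, shCdk8-1 and shCdk8-2, SD, n = 3; adjusted p = 0.00457 and 7.41e-09). Pkp3, found in most epithelia, was at 1.48, 1.73 and 1.27 CPM in cntrl, 2.49, 2.05 and 1.96 CPM in shCdk8-1 and 2.61, 3.93 and 2.96 CPM in shCdk8-2 libraries in DMSO. No knockdown library overlapped the cntrl libraries, and Pkp3 rose by 0.55 ± 0.202 with shCdk8-1 (adjusted p = 0.0251) and by 1.08 ± 0.188 with shCdk8-2 (adjusted p = 5.69e-05). Its rise with shCdk8-1 had an adjusted p of 0.121 without shCdk8-1 replicate 1, of 0.115 without cntrl replicate 3 and of 0.0559 without cntrl replicate 1, and 0.0739 in DESeq2. Its rise with shCdk8-2 was less than 2-fold without cntrl replicate 3 (0.96) or without shCdk8-2 replicate 2 (0.89). Pkp4 fell by 0.33 ± 0.0343 and 0.25 ± 0.0342 (adjusted p = 4.81e-08 and 2.38e-06).

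Sprr1a, a small proline-rich protein that is crosslinked into the cornified envelope of stratified epithelia, showed the largest fall in the group. Its gene lies on chromosome 3 (92483952 to 92485895, minus strand), within the cluster of cornified envelope genes. In DMSO, it had 21, 47 and 55 counts in cntrl (1.29, 2.55 and 2.69 CPM), 1, 1 and 3 counts in shCdk8-1 (0.0470, 0.0569 and 0.155 CPM) and 6, 3 and 4 counts in shCdk8-2 libraries (0.261, 0.153 and 0.219 CPM). Every knockdown library lay under every cntrl library, and cntrl replicate 1 was the lowest of the cntrl libraries. Summed counts were 26.0 times lower with shCdk8-1 after scaling (95% counting interval 10.8 to 81.4), and the fitted log2 fold changes were -4.59 ± 0.469 and -3.34 ± 0.386 (SE; adjusted p = 4.71e-08 and 3.26e-07). In SnxB, it had 8, 15 and 23 counts in cntrl (0.437, 0.695 and 1.18 CPM), 1 in each shCdk8-1 library (0.0537, 0.0594 and 0.0529 CPM) and 1, 1 and 0 in the shCdk8-2 libraries (0.0492, 0.0569 and 0 CPM). The ratios of summed counts to cntrl in SnxB were 14.0 (4.51 to 70.5) and 21.2 (5.55 to 181), again lower (adjusted p = 6.48e-05 and 3.90e-05). Its promoter window, at chr3:92485882-92486131 on GRCm38.p6, is also shown and held the most motif matches of those printed:
Sprr1a: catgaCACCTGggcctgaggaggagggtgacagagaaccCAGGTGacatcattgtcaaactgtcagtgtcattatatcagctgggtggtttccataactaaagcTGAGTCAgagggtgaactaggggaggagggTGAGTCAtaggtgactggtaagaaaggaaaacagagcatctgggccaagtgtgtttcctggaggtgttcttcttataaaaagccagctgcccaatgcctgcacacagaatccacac
TGANTCA matched 2 times, 146 to 140 and 116 to 110 bases before the start, and CAGGTG 2 times, 245 to 240 and 211 to 206 bases before it. TGANTCA was present in 6.87% of all windows and in 3 of the 24 members (Cldn4, F11r and Sprr1a). Of 14 other cornified envelope genes, 1 passed the filter and none was called.

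Of the factors that maintain epithelial cells, neither of those tested passed in the same direction with both hairpins in DMSO. Ovol1, a zinc finger repressor of EMT genes, was at 0.677, 1.14 and 0.979 CPM in cntrl, 0.423, 0.626 and 0.619 CPM in shCdk8-1 and 1.09, 1.68 and 1.04 CPM in shCdk8-2 libraries. Relative to cntrl, the log2 fold change of Ovol1 was -0.77 ± 0.306 with shCdk8-1 (SE; adjusted p = 0.0367) and 0.43 ± 0.256 with shCdk8-2 (adjusted p = 0.166), and the shCdk8-1 libraries lay under the shCdk8-2 libraries (difference 1.19 ± 0.283, adjusted p = 0.00455). In SnxB, Ovol1 was at 0.819, 0.881 and 0.768 CPM in cntrl, 0.699, 0.594 and 0.370 CPM in shCdk8-1 and 1.13, 0.853 and 1.24 CPM in shCdk8-2 libraries, and neither hairpin passed the test (adjusted p = 0.125 and 0.248). Left without cntrl replicate 2, cntrl replicate 3 or shCdk8-1 replicate 1, the fall with shCdk8-1 in DMSO had adjusted p-values of 0.151, 0.0886 and 0.153, and 0.0935 in DESeq2. The difference between the hairpins was less than 2-fold without shCdk8-2 replicate 2 (0.94).

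Grhl2, a Grainyhead-like activator of junction genes, had 9, 12 and 6 counts in cntrl, 7, 0 and 0 counts in shCdk8-1 and 5, 7 and 10 counts in shCdk8-2 libraries in DMSO. Its log2 fold change with shCdk8-1 was -1.98 ± 0.722 (SE; adjusted p = 0.0236), although shCdk8-1 replicate 1 overlapped the cntrl libraries. The call was lost without shCdk8-1 replicate 2 or 3 (adjusted p = 0.0802 and 0.0950) or without cntrl replicate 1 or 2 (0.0546 and 0.0899), and without shCdk8-1 replicate 1 the fitted value was -6.23. With shCdk8-2 the log2 fold change was -0.43 ± 0.561 (adjusted p = 0.539). Esrp2, which directs epithelial splicing, had 0, 1 and 4 counts in cntrl, 6, 10 and 15 in shCdk8-1 and 10, 8 and 5 in shCdk8-2 libraries in DMSO. It did not pass the filter, and the ratio of its summed counts to cntrl was 5.87 (95% counting interval 2.26 to 19.3) with shCdk8-1 and 4.17 (1.55 to 14.0) with shCdk8-2. Its partner Esrp1, Grhl1 and Grhl3 did not exceed 1 count. Without the filter, F11r (log2 fold change 2.12 ± 0.608 and 1.92 ± 0.622, adjusted p = 0.00219 and 0.00907) and Esrp2 (2.48 ± 0.630 and 1.99 ± 0.671, adjusted p = 4.13e-04 and 0.0133) were called higher with both hairpins in DMSO, and Ppl with shCdk8-1. The same test in SnxB was passed by neither hairpin for F11r (adjusted p = 0.0502 and 0.694) or Esrp2 (0.0856 and 0.133). Ppl did not pass there with shCdk8-1 either (0.0790).

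In the presence of SnxB, the knockdown lines differed from cntrl in much the same members, with other libraries on both sides. Called higher were Krt8, Jup, Pkp1 and Pkp3 with shCdk8-1 (5.75% of all genes tested) and the same 4 with shCdk8-2 (5.04%). Called lower were Krt80, Ocln, Marveld2, Sprr1a and Grhl2 with shCdk8-1 (7.06%) and Marveld2, Sprr1a and Grhl2 with shCdk8-2 (5.75%). By the adjusted p alone, 11 of 14 passed with shCdk8-1 (60.6% of all genes) and 12 of 14 with shCdk8-2 (56.7%). The rises of Tjp1 and Pkp2 with shCdk8-1 in DMSO were not repeated in SnxB. There the log2 fold changes were -0.02 and -0.04 (adjusted p = 0.834 and 0.628 in edgeR's test). Pkp1, which had 1, 0 and 2 counts in cntrl cells in SnxB, had 16, 27 and 30 counts in shCdk8-1 and 8, 7 and 8 counts in shCdk8-2 cells. The ratios of its summed counts to cntrl were 26.6 (95% counting interval 8.75 to 132) and 8.31 (2.51 to 43.2), with adjusted p = 1.02e-07 and 6.68e-04 in edgeR's test. Pkp3 was at 0.819, 0.649 and 0.563 CPM in cntrl, 1.34, 1.13 and 1.64 CPM in shCdk8-1 and 1.87, 1.65 and 1.83 CPM in shCdk8-2 libraries, without overlap. Its log2 fold change was 1.03 ± 0.260 and 1.40 ± 0.246 (SE; adjusted p = 0.00196 and 6.23e-05), and with shCdk8-1 it was under 2-fold without cntrl replicate 2 or 3 or shCdk8-1 replicate 3 (0.99, 0.93 and 0.87). Grhl2 fell by 2.58 ± 0.687 with shCdk8-1 and by 1.41 ± 0.569 with shCdk8-2 (adjusted p = 0.00297 and 0.0406), and the second call was lost without any 1 of the libraries compared except cntrl replicate 1 (adjusted p up to 0.130).

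SnxB alone changed few members. In cntrl cells it lowered Sprr1a and Pkp3 by over 2-fold, 2 of the 14 tested members (0.305% of all genes were called in either direction), and raised Pkp2 by less than 2-fold, so that 3 passed by the adjusted p alone (5.54% of all genes). Sprr1a fell from the 3 cntrl values in DMSO given above to 0.437, 0.695 and 1.18 CPM, without overlap (log2 fold change -1.51 ± 0.298, adjusted p = 0.00335). Pkp3 fell from 1.27 to 1.73 CPM in DMSO to 0.563 to 0.819 CPM in SnxB (log2 fold change -1.14 ± 0.255, adjusted p = 0.00957), with an adjusted p of 0.0614 without cntrl replicate 2 in DMSO. Pkp2 rose from 31.2 ± 2.60 to 42.8 ± 2.36 CPM (SD, n = 3; log2 fold change 0.45 ± 0.0693, adjusted p = 3.16e-04). Sprr1a thus moved down with SnxB and with both hairpins, whereas Pkp3 moved down with SnxB and up with the hairpins. The knockdown and SnxB comparisons in cntrl cells share the 3 cntrl libraries in DMSO.

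Of the 4 members called with both hairpins in DMSO, Krt8, Jup and Marveld2 did not pass the test for SnxB in any line, whereas Sprr1a did in cntrl cells. Ocln did not pass it in any line either. In cntrl cells the 95% confidence interval of the log2 fold change with SnxB was -0.24 to 0.30 for Jup, -0.15 to 0.27 for Ocln and -0.65 to 0.27 for Marveld2. That of Krt8, at 1 count or fewer in these libraries, was -2.32 to 1.12. In shCdk8-1 cells the interval of Krt8 was -0.27 to 0.11 and that of Jup -0.16 to 0.16. In shCdk8-2 cells that of Krt8 was -0.36 to -0.03, with an adjusted p of 0.290.

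In shCdk8-1 cells, Pkp1 was the only member that passed for SnxB (called 1 of 14, against 0.11% of all genes called and 1.48% by the adjusted p alone). An unadjusted p under 0.05 was found for 7 of 14. The share of all genes at that limit was not computed, so that this count and those by the unadjusted p below are a description only. Pkp1 rose from 0.470, 0.569 and 0.413 CPM to 0.860, 1.60 and 1.59 CPM (log2 fold change 1.47 ± 0.311, adjusted p = 0.0154). The call was lost without shCdk8-1 replicate 1 or 3 in DMSO or replicate 2 or 3 in SnxB (adjusted p = 0.0778, 0.0837, 0.0925 and 0.104) and with only the groups compared in the fit (0.130), and DESeq2 gave no adjusted p for it. In shCdk8-2 cells no member was called by edgeR's quasi-likelihood test (0.125% of all genes) or by DESeq2, and 6 of 14 had an unadjusted p under 0.05. By the adjusted p alone, Krt80 (log2 fold change -0.55 ± 0.124, adjusted p = 0.0196), Pkp3 (-0.82 ± 0.182, adjusted p = 0.0191) and Pkp2 (0.27 ± 0.0639, adjusted p = 0.0279) passed, against 2.05% of all genes. Krt80 did not pass without replicate 2 or 3 of either treatment (adjusted p up to 0.115), Pkp3 without replicate 2 in DMSO or any replicate in SnxB (up to 0.138), and Pkp2 without replicate 1 or 3 in DMSO or 1 or 2 in SnxB (up to 0.161).

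**Figure D4:**
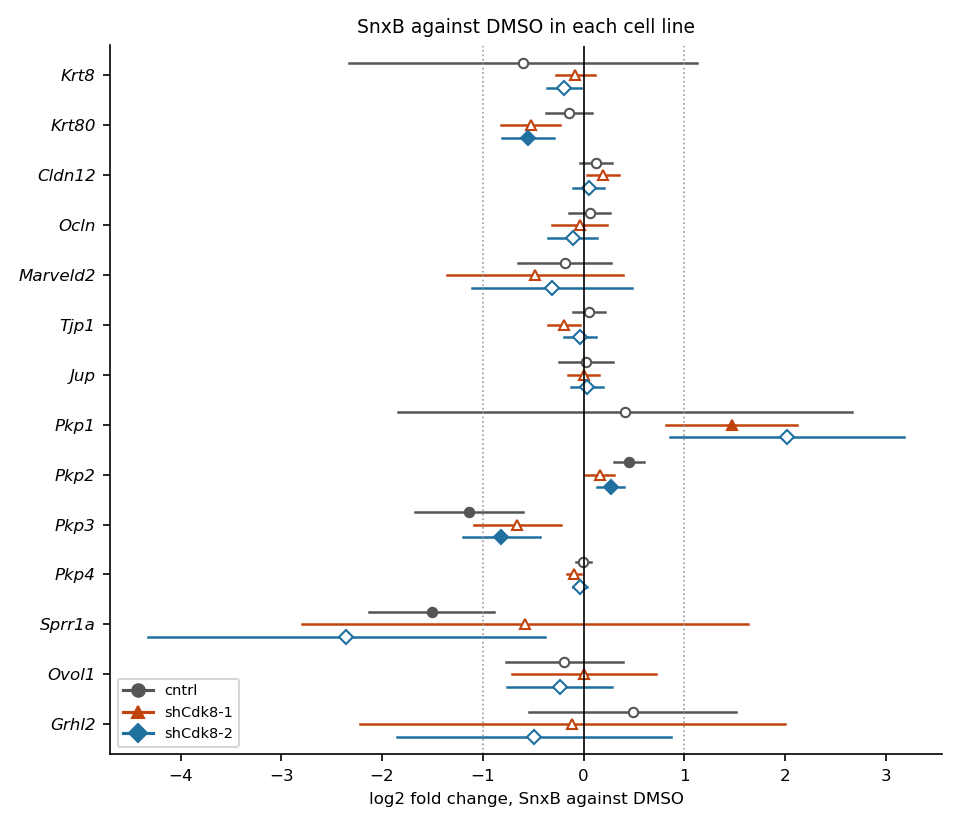
Log2 fold change of the 14 tested genes in SnxB against DMSO within cntrl (circles), shCdk8-1 (triangles) and shCdk8-2 cells (diamonds), with bars for 95% confidence intervals and filled symbols for an adjusted p under 0.05. Of the 42 values, 7 passed. Pkp3 lies to the left of 0 and Pkp2 to the right of 0 in all 3 lines, and the intervals of Jup and Ocln span 0 in all 3.

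Whether the response to SnxB differed between a knockdown line and cntrl was tested as an interaction. No member passed with either hairpin by edgeR or was called by DESeq2 (0.0391% of all genes called with shCdk8-1 and 0.0157% with shCdk8-2), with 3 and 1 of 14 at an unadjusted p under 0.05. Those were Krt80, Tjp1 and Pkp2 with shCdk8-1 and Krt80 with shCdk8-2. The difference in response was 0.48 ± 0.332 and 0.32 ± 0.316 for Pkp3 and 0.93 ± 1.32 and -0.85 ± 0.963 for Sprr1a on the log2 scale (SE), so that the calls in cntrl cells alone do not show a difference between lines.

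The 2 knockdown lines differed from each other in 9 of the 14 tested members in DMSO by the adjusted p (21.1% of all genes) and by over 2-fold in Pkp1 and Ovol1 (2.17% of all genes). Krt8, Krt80, Ocln, Pkp2, Pkp3 and Ovol1 were higher and Jup, Pkp1 and Tjp1 were lower with shCdk8-2. For Krt80 and Ocln, the difference of 0.45 ± 0.121 and 0.42 ± 0.120 on the log2 scale (SE; adjusted p = 0.0104 and 0.0152) put shCdk8-2 between shCdk8-1 and cntrl, which is also the order of Cdk8. Jup and the counts of Pkp1, described above, followed the same order. For Krt8, Pkp2 and Pkp3 the order was different, with shCdk8-2 furthest from cntrl. Marveld2 and Sprr1a did not pass between the lines (adjusted p = 0.766 and 0.282 in edgeR's test). With 1 line for each hairpin, a dependence on the level of Cdk8 was not tested. Krt80 no longer passed without shCdk8-1 replicate 1 or 3 or shCdk8-2 replicate 2 (adjusted p up to 0.0678), and Ocln without shCdk8-1 replicate 2 or shCdk8-2 replicate 1 (up to 0.114). Pkp3 did not pass without replicate 2 or 3 of either line (up to 0.213), nor Tjp1 without shCdk8-1 replicate 2 or any shCdk8-2 replicate (up to 0.146).

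Genes around the group were read from lists of other junction, filament and EMT genes. Of 15 adherens junction genes, 10 were tested, and none was called with both hairpins in DMSO. Among all genes tested, 9.53% were called in the same direction with both. By the adjusted p, 5 rose and 3 fell with shCdk8-1, and 2 rose and 3 fell with shCdk8-2. The shares of all genes that passed were 59.6% and 57.1%. Nectin2, a cell adhesion molecule, fell with both (log2 fold change -1.05 and -0.69, adjusted p = 1.69e-09 and 5.25e-07), by over 2-fold with shCdk8-1, and Nectin1 fell by less than 2-fold with both (-0.87 and -0.53, adjusted p = 9.11e-11 and 1.16e-07). Cdh1, which encodes E-cadherin, was at 0.141 ± 0.0965 CPM in cntrl, 0.658 ± 0.122 CPM in shCdk8-1 and 0.260 ± 0.249 CPM in shCdk8-2 cells in DMSO. Its log2 fold change was 2.12 ± 0.592 with shCdk8-1 (SE; adjusted p = 0.00417) and 0.74 ± 0.727 with shCdk8-2 (adjusted p = 0.404) in DMSO. In SnxB it was called higher with both (2.60 ± 0.563 and 2.15 ± 0.602, adjusted p = 4.81e-04 and 0.00453).

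Of 6 hemidesmosome genes, 5 were tested. By the adjusted p, 1 rose and 3 fell with each hairpin (median log2 fold change -0.35 and -0.56). Of all genes, 59.6% passed with shCdk8-1 and 57.1% with shCdk8-2. The integrin chain Itgb4, which anchors keratin at the basal membrane, rose from 5.87 ± 0.523 CPM to 15.1 ± 0.721 and 13 ± 1.28 CPM (log2 fold change 1.36 and 1.14, adjusted p = 1.44e-09 and 3.36e-08). Its partner chain Itga6 fell (-1.11 and -0.87, adjusted p = 6.61e-14 and 4.86e-12), as did Plec, which encodes the linker plectin (-1.01 and -0.76, adjusted p = 1.41e-06 and 4.57e-05), both by over 2-fold with shCdk8-1 and by less with shCdk8-2. Of 14 other factors of epithelial differentiation, 7 were tested. By the adjusted p, 2 rose and 1 fell with shCdk8-1 (59.6% of all genes passed), and 1 rose and 3 fell with shCdk8-2 (57.1%). Elf3, an ETS factor of epithelia, rose from 1.03 ± 0.132 CPM to 3.62 ± 0.464 and 3.37 ± 0.221 CPM (log2 fold change 1.80 and 1.69, adjusted p = 3.99e-08 and 1.34e-07). Foxa1, a pioneer factor of luminal cells, fell with both (-0.86 and -1.09, adjusted p = 0.00114 and 1.62e-04), by over 2-fold with shCdk8-2.

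Of 9 EMT transcription factors, 8 were tested, of which 6 fell and 2 rose with shCdk8-1 and 5 fell and 1 rose with shCdk8-2 by the adjusted p, which 59.6% and 57.1% of all genes passed. Called lower by over 2-fold was 1 of the 8 with each hairpin, against 7.14% and 5.95% of all genes. Snai2, which encodes the repressor Slug, fell from 1.70 ± 0.144 CPM to 0.0883 ± 0.0856 and 0.256 ± 0.0919 CPM (log2 fold change -4.21 and -2.67, adjusted p = 2.79e-07 and 5.54e-06). Among 13 other intermediate filament genes, 9 were tested, and the type III chain Prph (log2 fold change 1.24 and 1.53, adjusted p = 2.45e-09 and 8.93e-11) and Synm, which encodes synemin (1.70 and 2.02, adjusted p = 1.11e-10 and 6.22e-12), rose with both hairpins, while Vim fell by 0.18 with shCdk8-1 (adjusted p = 2.54e-04) and was at a log2 fold change of -0.08 with shCdk8-2 (adjusted p = 0.0565).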

How the data were processed

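RNA was sequenced from E0771 cells in 18 libraries of 6 groups, assigned by the labels. The authors trimmed reads with Trimmomatic 0.36, aligned them to GRCm38 with STAR 2.5.2b and counted them by strand with featureCounts 1.5.1 on GENCODE M13; the deposited values are whole-number counts per gene, not normalized. The labels do not say whether libraries came from separate cultures, so p-values measure only the spread between these libraries. The replicate number in the column headers differed from the labels in 4 libraries, and the labels were followed.

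Here, symbols were taken from GENCODE M21. Counts were fitted with edgeR 4.0.16 (R 4.3.3; quasi-likelihood test, TMM scaling, 6 group means, 12 residual degrees of freedom) over all 18 libraries, for 12772 genes kept by a minimum count of 10 and total of 15. P-values were adjusted by the Benjamini-Hochberg method over all genes tested, and genes were called where the fold change exceeded 2 and the adjusted p was under 0.05. CPM were scaled by TMM, and RPKM used the exon length of each gene. Counting intervals are exact intervals for the ratio of summed counts and leave out the spread between libraries. The fit was tested on simulated data. Values in every library are given for members called in at least 1 comparison with a mean of at least 1 CPM in a group. Genes of other lists were named where both hairpins called them in the same direction in DMSO, at most 5 per list by size of change and with at least 1 CPM in a group. Beyond that rule, Marveld1, Marveld3, Cdh1, Nectin1, Nectin2, Itga6, Plec, Foxa1 and Vim were named after their values were seen, as were markers of cell types. The members and lists were chosen with earlier results of these data known. Promoter windows came from RefSeq (GRCm38.p6), which held 24 of the 42 members. Alternatives were scaling by DESeq2's size factors or by library totals, DESeq2 1.42.0, no filter, a filter of over 1 CPM in 3 libraries, only the groups compared, the replicate number as a block, and each library left out in turn. Figures were drawn with matplotlib 3.10.9.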

Additional observations from a re-analysis of the deposited data

How the results depend on the processing

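No direction was reversed in any of 876 repeated values of 63 member comparisons that had passed, and 800 kept their side of the threshold. The calls of Krt8, Jup, Marveld2 and Sprr1a with both hairpins in DMSO held in every alternative. The count of members called for SnxB in shCdk8-1 cells went from 1 to 0 in DESeq2, with the filter of over 1 CPM, under which Pkp1 was not tested, and with only the groups compared. The count between the 2 knockdown lines went from 2 to 1 with the filter of over 1 CPM and with only the groups compared. Leaving out 1 library gave 7 to 9 members for shCdk8-1 and 6 to 7 for shCdk8-2 in DMSO, 8 to 11 and 6 to 8 in SnxB, 5 to 6 with both hairpins (F11r or Esrp2 then passed the filter, which asks for fewer libraries in a smaller group), 1 to 2 for SnxB in cntrl, 0 to 1 in shCdk8-1 and 1 to 3 between the lines. Without the filter, 10 and 7 members were called in DMSO. Of all genes, 830 were then called higher and 1143 lower with shCdk8-1, and 789 and 925 with shCdk8-2. With the filter, these numbers were 686 and 912, and 647 and 760. Over all genes, the calls for SnxB in shCdk8-1 cells numbered 14, against 7 with only the groups compared and 24 without the filter, and those in shCdk8-2 cells 16 against 28 without the filter. The calls for the interactions numbered 5 and 2, against 15 and 9 without the filter, 3 and 1 with only the groups compared, and 5 and 3 in DESeq2. Sprr1a was not tested in SnxB with only the groups compared. Where no cause is named, the cause was not tested.

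Libraries of the same replicate number deviated together at a correlation over 0.1 in 2 of 3 pairs for shCdk8-2 against cntrl in SnxB (0.058 to 0.247) and in 0 of 3 in the other comparisons, so that the numbers were not taken as a pairing. In a fit with a replicate block, the counts of members called were 7 and 5 in DMSO, 9 and 6 in SnxB, 2, 1 and 0 for SnxB in cntrl, shCdk8-1 and shCdk8-2, 2 between the lines, 4 with both hairpins and 0 for each interaction. Grhl2 with shCdk8-2 in SnxB was the call that the block ended (adjusted p = 0.0542, against 0.0406). Its adjusted p was also 0.0502 with library totals, and DESeq2 also gave a value over the threshold. A library of 3 counts or fewer for a gene limits what can be said of the 28 members that were not tested.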

Other observations

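The genes around the members that moved most were read after the members' values had been seen, within 250 kb on either side and in DMSO, and are given as values only. Around Krt8, 9 of 21 listed genes were tested, and none was called higher with either hairpin, while Itgb7, an integrin chain of leukocytes, was lower by both (log2 fold change -3.72 and -2.05, adjusted p = 8.27e-20 and 9.70e-17 in edgeR's quasi-likelihood test), as was Soat2 (-1.86 and -2.04, adjusted p = 0.00149 and 8.25e-04). Tns2 was called lower with shCdk8-1 only (-1.06 and -0.84). Around Jup, 10 of 32 were tested, and Hap1, a neighbor, was called lower (-1.87 and -1.19, adjusted p = 3.54e-11 and 1.10e-08). Around Ocln, 11 of 17 were tested, and around Marveld2, 10 of 17, each window holding the other gene. Ccdc125 (-1.53 and -1.34, adjusted p = 6.20e-09 and 3.72e-08) and Naip6, in the Ocln window only (-1.64 and -1.24, adjusted p = 6.80e-08 and 1.63e-06), were called lower with both hairpins. Naip1 was called lower with shCdk8-2 only. Apart from Ocln and Marveld2, no other gene there was called with either hairpin. Rad17, which starts next to Marveld2, had a log2 fold change of 0.16 with each (adjusted p = 0.0144 and 0.0188). Around Sprr1a, 3 of 35 were tested, and Sprr2k, another small proline-rich protein of the cornified envelope, was called lower (-4.87 and -3.63, adjusted p = 7.37e-05 and 2.23e-04).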
